A study of Danio rerio with 24 samples.

Results

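Inorganic arsenic enters cells, is methylated and is pumped out by a small set of proteins, and 9 zebrafish genes for them are described here across arsenite, uranium and mixed exposures. They are the arsenite methyltransferase gene as3mt, 6 aquaglyceroporin genes (aqp3a, aqp7, aqp9a, aqp9b, aqp10a and aqp10b), and the 2 ABC pump genes abcc1 and abcc2. The aqp3a paralog aqp3b is not among them and is counted with the other aquaporin genes below. The 9 genes were taken by symbol for their role, though with earlier results of these data known. All 9 were found among the 39974 genes of the expression table. RNA came from whole larvae of AB zebrafish (Danio rerio), a wild-type strain, at 5 days after fertilization. All groups shared that background, age and diluted Danieau's solution, an embryo medium. The vehicle group received no metal. The exposed groups were held from 4 hours after fertilization in 1 or 10 µM sodium arsenite, in 30 or 300 µg/L uranyl nitrate (a uranium salt), or in a mixture of the lower dose of each (1 µM and 30 µg/L). Each of the 6 groups had 4 libraries, each from a pool of 10 larvae, so n = 4 pools for every group value below and p-values measure the spread between pools.

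Trivalent arsenite is an uncharged molecule in water at neutral pH, and aquaglyceroporins, channels that pass glycerol as well as water, let it cross membranes. In the cell, As3mt transfers methyl groups from S-adenosylmethionine to arsenic, with thioredoxin or glutathione as the reductant. In mammals the multidrug resistance proteins MRP1 and MRP2, encoded by ABCC1 and ABCC2, carry glutathione conjugates of arsenic out of cells, and MRP2 does so across the apical membrane of liver, kidney and intestinal cells.

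Expression was given as FPKM, fragments scaled to gene length and library size. Depth ran from 15456854 to 22987080 reads per library, and 26317 to 27013 genes were above 0 in each. Markers of liver, intestine, kidney tubule, epidermis, ionocytes, skeletal muscle and brain (6 each) were all detected, with none at 0 throughout any group. In RNA from whole animals, fewer cells of a type and less RNA per cell cannot be told apart. Each contrast was tested in 1 limma fit over 22682 genes on log2(FPKM + 1), and a gene was called at a Benjamini-Hochberg adjusted p under 0.05. Fold changes below are on that scale unless a ratio is named, and they understate the change of genes with low FPKM.

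Of the 9 genes, abcc2 alone was called against vehicle, and in arsenite at 10 µM alone. There, 1 of 9 members was called, beside 0.727% of all genes tested. At 1 µM arsenite 0 of 9 members were called, beside 0.132% of all genes. In uranyl nitrate at 30 µg/L it was 0 of 9, beside 0% of all genes, and at 300 µg/L 0 of 9, beside 1.77%. In the mixture it was 0 of 9, beside 0.406%. At an unadjusted limma p under 0.05 there was 1 member in each of these groups except the mixture, which had 2. At 30 µg/L, where no gene was called, 1620 genes had such a p. With 9 genes, counts of 0 lie near these background shares and say little by themselves, so values and intervals are given for each gene. All 9 had at least 0.5 FPKM in all 24 libraries, so none entered the test through 1 group.

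Levels per gene length differed widely among the 9. In vehicle the order was aqp3a (153 FPKM), abcc2 (18.7), aqp9b (14.8), abcc1 (13.1), as3mt (12.7), aqp9a (8.96), aqp7 (5.53), aqp10a (3.90) and aqp10b (1.60). Of the neighbours in this order, abcc1 (12.2 to 14.0 FPKM) and as3mt (11.9 to 14.2 FPKM) overlapped between vehicle libraries, and the other neighbours did not. The channel gene aqp3a stood far above every other member. The spread between pools also differed. The median coefficient of variation within groups was 5.60% for aqp3a, 5.89% for abcc1, 6.38% for abcc2 and 6.52% for as3mt, against 11.2% for aqp7, 11.9% for aqp10a, 15.5% for aqp9a, 20.8% for aqp9b and 25.6% for aqp10b. For aqp10b, 20 to 68 reads stood behind each value, for as3mt 244 to 395, and for abcc2 2804 to 7458.

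The most abundant channel gene was aqp3a (NCBI Gene 406777), whose mammalian counterpart is a glycerol and water channel of skin and kidney. Vehicle libraries held 155, 150, 151 and 157 FPKM, arsenite at 1 µM 173, 167, 166 and 189, and arsenite at 10 µM 171, 142, 164 and 147. All 4 libraries at 1 µM lay above all 4 of vehicle, while those at 10 µM lay on both sides of them. The difference at 1 µM was 0.18 on the log2 scale (95% interval 0.05 to 0.31) and did not pass (adjusted p 0.486). In uranyl nitrate aqp3a stood at 152 ± 7.66 FPKM (SD) at 30 µg/L and at 142 ± 3.97 at 300 µg/L, where all 4 libraries lay below vehicle (-0.11, adjusted p 0.411). In the mixture it was 171 ± 15.3 FPKM, against 153 ± 3.15 in vehicle (0.15, adjusted p 0.390).

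The channel genes aqp9a (606660) and aqp9b (570191) are counterparts of mammalian AQP9, through which hepatocytes take up glycerol and arsenite. For aqp9b the 4 vehicle libraries were close together, at 14.8, 14.5, 15.5 and 14.4 FPKM. In arsenite at 10 µM they were 11.7, 23.6, 13.4 and 27.0 FPKM, 2 below and 2 above all vehicle libraries. The group mean was 18.9 ± 7.50 FPKM, and the difference of 0.26 (-0.18 to 0.69) did not pass (adjusted p 0.730). At 1 µM replicate 3 stood at 24.5 FPKM and the other 3 at 14.1 to 17.7. With 300 µg/L uranyl nitrate replicate 4 stood at 27.4 and the other 3 at 15.2 to 17.2. Values well above vehicle thus came from 1 or 2 pools of these 3 groups, beside pools near or below it. At 30 µg/L all 4 libraries, at 12.1 to 13.8 FPKM, lay below vehicle (-0.20, adjusted p 0.885) and below those at 300 µg/L. The limma fit takes 1 spread per gene over all 6 groups. For aqp9b the coefficient of variation was 3.31% in vehicle and 5.57% at 30 µg/L, but 39.6% at 10 µM arsenite. The p of these 2 narrow groups thus also reflects the spread of the others. The difference between the uranyl nitrate doses was 0.51 (0.08 to 0.95) with an adjusted p of 0.154. The paralog aqp9a showed no such split, with group means from 8.64 to 10.3 FPKM that all overlapped vehicle.

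The genes aqp7 (334529), aqp10a (436621) and aqp10b (100034395) encode the remaining channels among the 9 members. In mammals AQP7 releases glycerol from fat cells, and in humans AQP10 is a channel of intestinal cells. For aqp7 the libraries exposed to 30 µg/L uranyl nitrate held 4.36, 4.70, 4.43 and 5.00 FPKM and those at 300 µg/L 5.53, 5.65, 6.07 and 6.40. The 2 doses did not overlap. Vehicle (4.55 to 6.55 FPKM) overlapped both, with 2 of the 4 libraries at 30 µg/L below it. The difference of 0.30 (0.11 to 0.49) lay just outside the threshold (adjusted p 0.0535). Of 9 other settings of the fit, 4 called it (adjusted p 0.0331 to 0.0499) and 5 did not (up to 0.0742), and it was not called in any of the 8 fits without 1 library (0.0707 to 0.151). None of the 9 members was called in that contrast, in which 6.65% of all genes were called, the largest share of any contrast here. In arsenite aqp7 stood at 5.75 FPKM at 1 µM and 4.78 at 10 µM (-0.17, adjusted p 0.540), against 5.53 in vehicle. It was lower at 10 than at 1 µM (-0.22, 95% interval -0.41 to -0.03, adjusted p 0.766). At 30 µg/L uranyl nitrate it was lower than in vehicle (-0.21, -0.40 to -0.02, adjusted p 0.657). Arsenite at 10 µM lay below 300 µg/L uranyl nitrate without overlap (-0.26, -0.45 to -0.07, adjusted p 0.191). None of these passed. The group means of aqp10a ran from 3.65 to 4.30 FPKM, and those of aqp10b from 1.32 to 1.76 FPKM, none called. In arsenite at 10 µM aqp10b ran from 0.745 to 2.42 FPKM, as wide a range as over all 24 libraries.

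**Figure D1:**
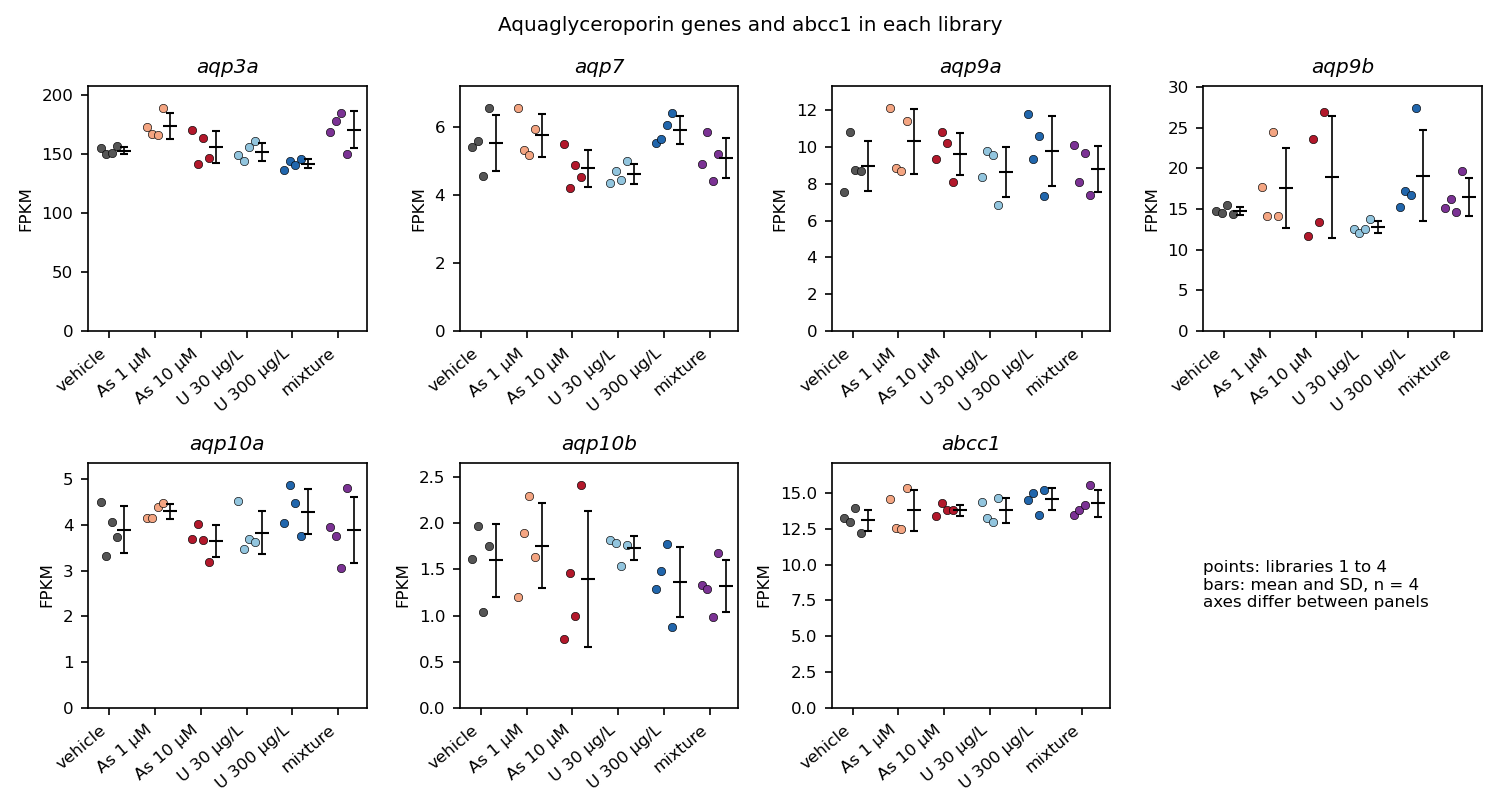
FPKM of the 6 listed aquaglyceroporin genes and abcc1 in each library (points, 4 per group) with group mean and SD (bars, n = 4), on linear axes from 0 that differ between panels. Libraries of aqp9b spread from 11.7 to 27.0 FPKM at 10 µM arsenite, while vehicle libraries sit between 14.4 and 15.5.

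The methyltransferase gene as3mt (664699), whose enzyme makes mono- and dimethylated arsenic, was measured at 12.8 ± 1.63 FPKM at 1 µM and 13.0 ± 1.16 at 10 µM arsenite, against 12.7 ± 1.03 in vehicle. Vehicle libraries held 14.2, 11.9, 12.8 and 12.1 FPKM, those at 1 µM 15.1, 12.3, 12.3 and 11.4, and those at 10 µM 13.2, 12.1, 12.1 and 14.5. The 3 groups overlapped. The change was -0.00 at 1 µM (95% interval -0.15 to 0.14) and 0.02 at 10 µM (SE 0.0699, -0.12 to 0.17, adjusted p 0.948). The interval at 10 µM covers ratios of FPKM + 1 from 0.919 to 1.12, so a change of the size seen for abcc2 lies outside it. Uranyl nitrate gave 13.5 ± 0.317 FPKM at 30 µg/L and 12.7 ± 0.267 at 300 µg/L. In the mixture the libraries held 13.9, 14.4, 13.7 and 15.3 FPKM, 2 within the range of vehicle and 2 above it. That difference was 0.16 (0.01 to 0.30) and did not pass (adjusted p 0.417).

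The pump gene abcc1 (100002010), in mammals a basolateral and widely expressed exporter, also kept a narrow range. Vehicle libraries held 13.3, 13.0, 14.0 and 12.2 FPKM and arsenite at 10 µM gave 13.4, 14.3, 13.8 and 13.8, which overlapped (0.07, 95% interval -0.06 to 0.20, adjusted p 0.761). Its highest mean, 14.6 ± 0.761 FPKM, came with the higher uranium dose (0.14, adjusted p 0.270). Over abcc1, as3mt and the channels together, 40 tests against vehicle gave 5 unadjusted p-values under 0.05 and a smallest adjusted p of 0.27. Over all genes, the share with such a p was 6.74% and 10.3% for arsenite at 1 and 10 µM, 7.14% and 16.6% for the lower and higher uranium dose, and 10.7% for the mixture, so 5 of 40 lies near the background. In 36 of the 40, the 95% interval of the change in FPKM + 1 lay within 1.5-fold in either direction. The exceptions were all of aqp9b, in every exposure but the mixture, and the spread behind these intervals is that of all 6 groups. For aqp10b, at 1.60 FPKM in vehicle, such a bound on FPKM + 1 leaves room for a larger change in FPKM.

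The pump gene abcc2 (393561) rose in arsenite at 10 µM. The 4 vehicle libraries held 18.5, 18.7, 19.0 and 18.8 FPKM, and the 4 libraries at 10 µM held 33.5, 35.3, 30.3 and 33.1. The lowest library at 10 µM lay above every library of every other group, the highest of which was 23.1 FPKM. The mean went from 18.7 ± 0.216 to 33.1 ± 2.06 FPKM, a ratio of 1.77, on 2990 to 4183 and 5895 to 7458 reads per library. On the log2 scale the rise was 0.79 (SE 0.0802, 95% interval 0.62 to 0.95, adjusted p 5.37e-06). An exact two-sided permutation test of the 4 against 4 libraries gave p 0.0286, the smallest that 70 splits can give.

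At 1 µM the abcc2 libraries held 19.7, 23.1, 16.9 and 22.5 FPKM, 3 above all of vehicle and 1 below. The difference of 0.12 (95% interval -0.05 to 0.28) was not called (adjusted p 0.869). The step from 1 to 10 µM was 0.67 (0.50 to 0.84, adjusted p 0.000103), with 4 of 4 libraries higher, and abcc2 was the only member of 9 called there, beside 0.176% of all genes. Fitted on the 8 libraries of those 2 groups alone, that step kept its size and was not called (0.67, adjusted p 0.102). In both uranium groups abcc2 overlapped vehicle. Its mean was 18.2 ± 1.19 FPKM at 30 µg/L (-0.04, 95% interval -0.21 to 0.13) and 18.6 ± 1.09 at 300 µg/L (-0.01, -0.18 to 0.16). Arsenite at 10 µM exceeded uranyl nitrate at 300 µg/L by 0.80 (adjusted p 3.00e-06), again with 1 of 9 members called, beside 1.03% of all genes.

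In the mixture the abcc2 libraries held 20.6, 22.8, 17.8 and 20.8 FPKM, within the range of 1 µM arsenite alone. The difference between the mixture and 1 µM arsenite was 0.00 (adjusted p 0.998), and the departure from additivity, the mixture less both components plus vehicle, was 0.04 (adjusted p 0.966). None of the 9 members was called for the mixture against 1 µM arsenite, beside 0.00441% of all genes, against 30 µg/L uranyl nitrate, beside 0.238%, or for the departure, beside 0.0353%.

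**Figure D2:**
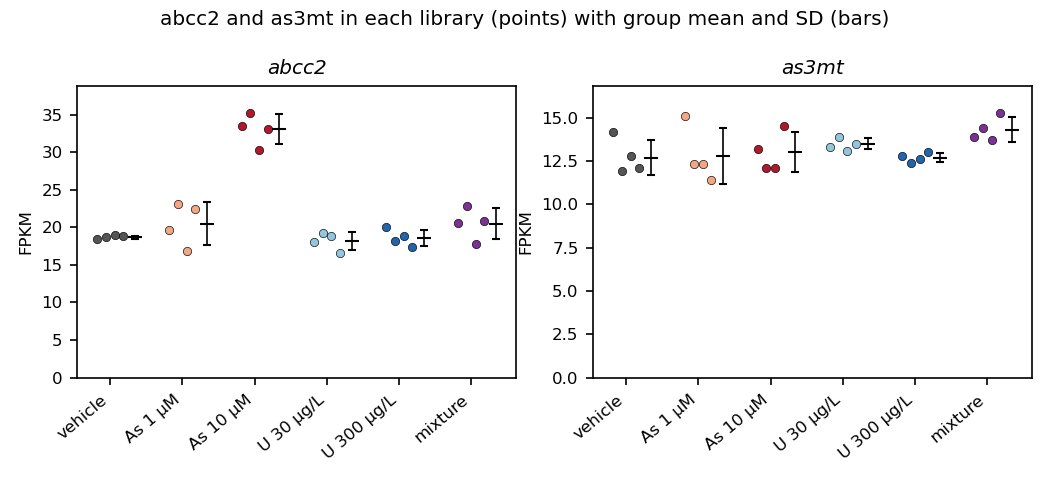
FPKM of abcc2 and as3mt in each library (points, 4 per group) with group mean and SD (bars, n = 4), on linear axes from 0. The 4 libraries of 10 µM arsenite lie between 30.3 and 35.3 FPKM for abcc2, above all other groups, while for as3mt they lie between 12.1 and 14.5 and overlap those of vehicle.

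**Figure D3:**
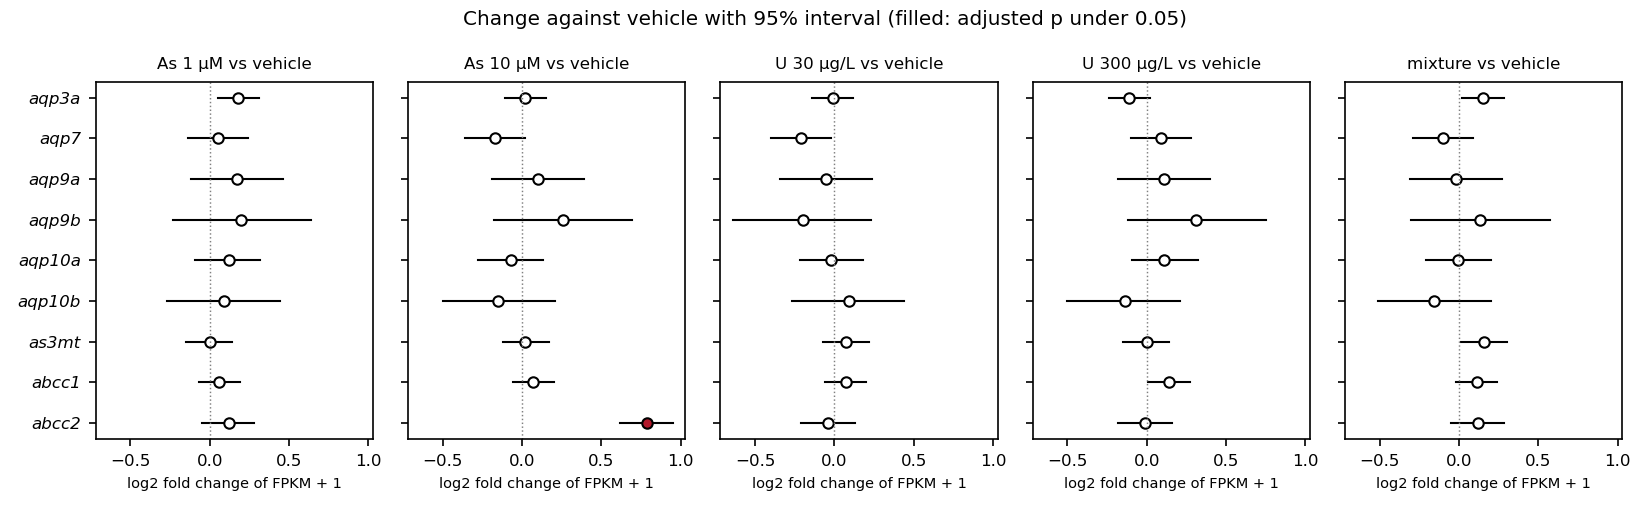
Log2 fold change of FPKM + 1 against vehicle (points) with its 95% interval (lines) for the 9 genes in each of the 5 exposures, filled where the adjusted p was under 0.05. The 1 filled point is abcc2 at 10 µM arsenite, at 0.79.

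Of 6 markers each, 3 of intestine and 1 of kidney tubule were called higher in the group where abcc2 was called, and none of liver. In mammals all of these tissues carry MRP2. At 10 µM arsenite, where 0.727% of all genes were called, 3 of the 6 intestine markers rose. They were fabp2, an intestinal fatty acid binding protein gene, from 3.93 to 6.70 FPKM (0.67, adjusted p 0.00362), vil1, the microvillus protein villin, from 89.7 to 121 (0.44, adjusted p 0.00257), and anpepb.1, an aminopeptidase N gene, from 84.0 to 116 (0.45, adjusted p 0.00472). The other 3 were not called, with slc15a1b at 0.18, cdx1b at 0.03 and fabp6 at -0.16. The summed FPKM of the 6 ran from 427 to 556 in vehicle and from 485 to 563 at 10 µM, which overlapped. Of the 6 kidney tubule markers, 1 rose, the sulfate transporter gene slc13a1, from 2.75 to 4.52 FPKM (0.55, adjusted p 0.0207). The summed FPKM of the 6 ran from 98.4 to 113 in vehicle and from 110 to 116 at 10 µM, which overlapped. The call of slc13a1 was lost without replicate 1 (adjusted p 0.0519) or 3 (0.0991) of vehicle, or without replicate 1 (0.0803) or 4 (0.0751) of 10 µM. None of the 6 liver markers was called, with sums of 3210 to 4830 FPKM in vehicle and 3060 to 3860 at 10 µM. The median change at 10 µM was 0.31 for the intestine markers, 0.07 for kidney tubule and -0.12 for liver. It was 0.13 for ionocytes, 0.06 for epidermis, 0.04 for brain and -0.07 for skeletal muscle, with no marker of these called. The kidney tubule median was thus no larger than that of ionocytes. With 300 µg/L uranyl nitrate and with the mixture fabp2 also rose (0.60 in each, adjusted p 0.0129 and 0.0157), and abcc2 was not called there. At 300 µg/L the kidney tubule marker slc12a1 was also called higher, and the epidermis marker ppl was called lower. Whether the calls of slc12a1 and ppl hold in other settings or without 1 library was not examined. These fabp2 calls were lost without replicate 4 of vehicle (0.0613 and 0.0882) and, for the mixture, also without vehicle replicate 2 (0.0523) or mixture replicate 4 (0.0503). The part of these cell types in the rise of abcc2 was not tested.

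Of 18 listed genes for arsenic reductants and reductases, 5 rose and 0 fell at 10 µM arsenite, beside 0.727% of all genes called. The list median was 0.04, beside 0.008 over all genes tested. The called share was thus far above that of all genes, while the median gene of the list changed little. The list was chosen with earlier results of these data known, so this share is a description and no test of the list. The omega-class glutathione transferase genes gsto1 and gsto2 stood out, a class whose human member GSTO1 reduces methylated pentavalent arsenic. For gsto1 the vehicle libraries held 12.9, 11.5, 13.6 and 13.8 FPKM and those at 10 µM 27.5, 26.7, 25.4 and 25.9, with no overlap (0.97, SE 0.0724, adjusted p 3.08e-08). For gsto2 the mean went from 98.9 to 236 FPKM (1.24, SE 0.0863, adjusted p 1.36e-08). Glutathione reductase, gsr, which regenerates reduced glutathione, went from 14.2 to 28.4 FPKM (0.94, SE 0.118, adjusted p 8.92e-05). Smaller rises were those of the glutaredoxin gene glrx, from 35.9 to 45.0 FPKM (0.31, adjusted p 0.0116), and the thioredoxin reductase gene txnrd3, from 63.5 to 75.0 (0.24, adjusted p 0.0127). The call of glrx was lost without replicate 1 at 10 µM (adjusted p 0.0512). That of txnrd3 was lost without replicate 3 of vehicle (0.0562) or without replicate 1 (0.0514) or 2 (0.0594) at 10 µM.

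At 1 µM the gene gsto1 held 16.2, 17.1, 16.5 and 18.1 FPKM, all above vehicle. It was the 1 gene of these 18 called (0.37, adjusted p 0.0410), beside 0.132% of all genes. Leaving out 1 library of vehicle or of 1 µM ended this call in 7 of 8 cases (largest adjusted p 0.142, without replicate 4 of 1 µM), with the exception of replicate 3 of 1 µM (0.0484). In the mixture, which holds the same arsenite dose, gsto1 stood at 14.5, 12.9, 11.8 and 12.4 FPKM, of which 3 were within the vehicle range. The difference of the mixture from 1 µM arsenite was -0.37 (95% interval -0.52 to -0.22) and did not pass (adjusted p 0.211). The genes gsto2 and gsr did not share this difference. For gsto2 the mean was 126 ± 3.37 FPKM at 1 µM and 125 ± 7.15 in the mixture, against 98.9 ± 8.44 in vehicle. For gsr it was 17.2 ± 2.31, 17.5 ± 2.58 and 14.2 ± 1.42 FPKM. Neither gene was called against vehicle in either group. Between 1 and 10 µM, 4 of the 18 rose, beside 0.176% of all genes called. They were gsto1 (0.61, adjusted p 0.000103), gsto2 (0.89, adjusted p 5.35e-06), gsr (0.69, adjusted p 0.00940) and txnrd3 (0.24, adjusted p 0.0364). The steps of gsto1 and gsto2 were called without any 1 of the 8 libraries. That of gsr was lost without replicate 1 of 1 µM (0.0702), and that of txnrd3 in 6 of 8 cases (largest adjusted p 0.191), the exceptions being replicate 4 of 1 µM and replicate 3 of 10 µM.

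Of 18 genes listed around the cycle of S-adenosylmethionine, the methyl donor of As3mt, 0 were called in any of the 5 exposures against vehicle. Their median was -0.02 at 10 µM arsenite, beside 0.008 over all genes. Of 11 other aquaporin genes, 9 were tested and 0 were called against vehicle in any exposure, with a median of -0.03 at 10 µM arsenite. These genes include aqp3b, the paralog of aqp3a, at a mean of 1.22 FPKM over the 24 libraries. Over all genes tested, 0.132% and 0.727% were called at 1 and 10 µM arsenite, and at most 1.77% in any exposure against vehicle. Counts of 0 in lists this short lie near those shares and say little by themselves.

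Among 18 other listed genes of the ABC transporter family, not all of them pumps, 17 were tested. At 10 µM arsenite, where 0.727% of all genes were called, 1 of the 17 rose. This was abcc12, at 5.50, 5.63, 4.48 and 4.71 FPKM in vehicle and 8.21, 8.64, 8.67 and 8.04 at 10 µM, with no overlap (0.63, SE 0.0855, adjusted p 0.000226). It was also higher at 10 than at 1 µM (0.44, adjusted p 0.0285). So was abcb11a, a relative of the bile salt export pump, at 3.49 against 2.30 FPKM (0.45, adjusted p 0.0445). These were the 2 of 17 called between the arsenite doses, beside 0.176% of all genes. Leaving out 1 library ended the call between doses in 6 of 8 cases for abcc12 (largest adjusted p 0.157), all but replicates 2 and 4 of 1 µM, and in 6 of 8 for abcb11a (largest 0.201), all but replicate 2 of each dose. With 300 µg/L uranyl nitrate 1 of the 17 was called, beside 1.77% of all genes, so this count says little by itself. It was abcc5, a pump of cyclic nucleotides in mammals, from 76.8 to 89.2 FPKM (0.21, adjusted p 0.0228). That call was lost in 6 of 8 cases (largest adjusted p 0.0903), all but replicate 2 of vehicle and replicate 3 of the exposed group. At that uranium dose abcc12 was 0.29 above vehicle (adjusted p 0.0843).

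Of 13 hexose and phosphate carrier genes, which can admit arsenite or the phosphate analog arsenate, 11 were tested. At 1 and 10 µM arsenite 0 of them were called, beside 0.132% and 0.727% of all genes. In the mixture 1 rose, beside 0.406% of all genes called. The sodium-phosphate carrier gene slc20a1b held 43.5, 41.2, 45.6 and 44.0 FPKM in vehicle and 60.2, 69.7, 60.1 and 56.6 in the mixture, with no overlap (0.49, SE 0.0796, adjusted p 0.00344). At 1 µM arsenite alone it was 0.24 above vehicle (adjusted p 0.432). Its departure from additivity was 0.08 (95% interval -0.16 to 0.31, adjusted p 0.934).

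**Figure D4:**
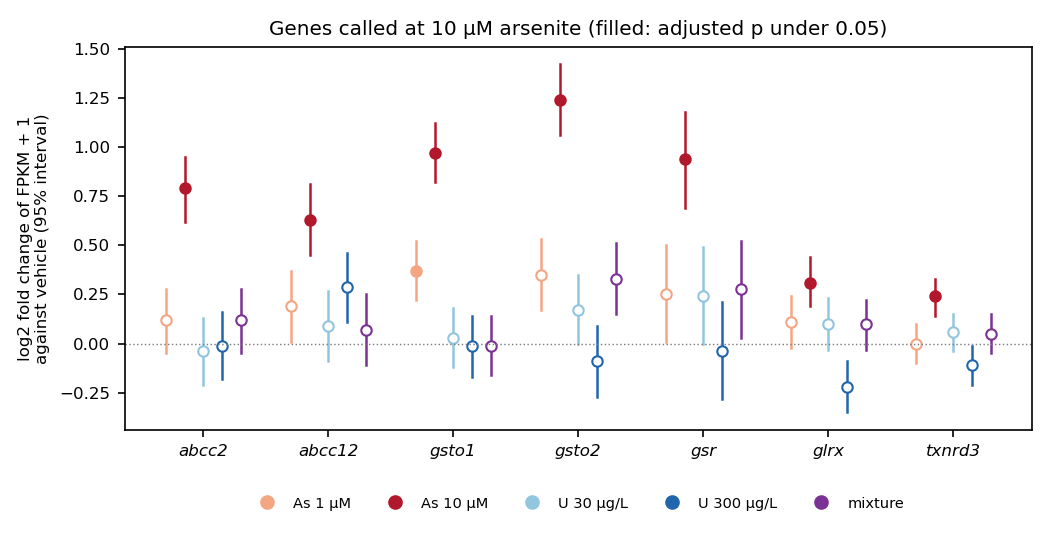
Log2 fold change of FPKM + 1 against vehicle (points, filled where the adjusted p was under 0.05) with its 95% interval (lines) in the 5 exposures, for abcc2 and the genes of the pathway lists called at 10 µM arsenite. At 10 µM the points run from 0.24 for txnrd3 to 1.24 for gsto2, and 1 other point is filled, gsto1 at 1 µM.

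Over all 24 libraries the genes most like abcc2, by Pearson's r of log2(FPKM + 1), were zgc:123284 (0.962), the prostaglandin reductase gene ptgr1.2 (0.949), cmbl (0.948), zgc:163022 (0.939) and aifm4 (0.938). All 5 were called higher in arsenite at 10 µM. Over the 20 libraries without it, r fell to between 0.522 for zgc:163022 and 0.826 for zgc:123284. With gsto1 the r of abcc2 was 0.900 over 24 libraries and 0.411 over 20, and with gsr 0.832 and 0.284. With as3mt it was -0.051 and with abcc1 -0.007. For as3mt the closest genes were slc29a2 (0.709), mir206-1 (0.709), cenpu (0.679), ugt1b1 (0.675) and esrrgb (0.675), none called at 10 µM arsenite. All these values are descriptions, since libraries share groups and these genes were chosen for their r.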

How the data were processed

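Polyadenylated RNA was sequenced from 24 pools of larvae, and the authors deposited 1 table of FPKM values per gene and library. Per the submitters' processing notes, HISAT2 2.1.0, HTSeq 0.6.1, DESeq2 1.10.1 and the build GRCz11 were used, with no role stated. The annotation and the strand setting are not given in the sources used here, so reads of close paralogs or overlapping genes may be shared. Reads were recovered by a search, per gene, for the largest step of which all its values, scaled by library, are multiples. This gave the depths, with a median of 18261463 reads. That 100.0% of values above 0 were whole (tolerance 0.01 reads) follows from the search and is no check of it. The gene lengths implied by the steps were close to whole numbers for 99.2% of genes with a step. Symbols came from a RefSeq gene table of GRCz12tu, used for names only, and matched 32044 genes (80.2%). All columns were used (0 left out).

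Genes with FPKM of at least 0.5 in at least 4 libraries were tested on log2(FPKM + 1) with limma 3.58.1 in R 4.3.3, with 6 group means, 18 residual degrees of freedom, a variance trend, and 11 contrasts. Adjusted p-values are limma's, Benjamini-Hochberg, over all 22682 genes of a contrast. The script was tested on simulated data. Alternatives changed the pseudocount, filter, scaling, trend, the libraries in the fit and a block on the replicate number. Values of same-numbered libraries did not deviate together (median r 0 over 60 pairs), and no label ties the numbers to a shared batch, so the fit used no block. The members and gene lists were chosen with earlier results of these data known. Named genes are all 9 members, list genes called in an exposure against vehicle or between the arsenite doses, and the 5 genes most like as3mt and each called member. Markers were named where called against vehicle, and the rest of the list was named for intestine only.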

Additional observations from a re-analysis of the deposited data

Results flagged for a closer look

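In uranyl nitrate at 300 µg/L, replicate 4 stood apart for aqp9b, at 27.4 FPKM against 15.2, 17.2 and 16.7 in the other 3 libraries. The gap to the nearest library was 0.833 of the range of the group, above the 95% critical value of Dixon's test for 4 samples. It was the 1 gene and group that passed among 54 (9 genes in 6 groups), and chance flags about 1 in 20.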

How the results depend on the processing

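The rise of abcc2 at 10 µM arsenite was called in all 9 other settings (log2 fold change 0.77 to 0.82, largest adjusted p 0.000503) and without any 1 of the 8 libraries (0.76 to 0.83). Against 1 µM arsenite, the fit of those 2 groups alone called 0 members, with abcc2 at 0.67 and an adjusted p of 0.102. That fit has fewer samples behind its spread, and its SE was 0.0962 against 0.0802 in the main fit. The cause of the lost call was not tested. Between the doses of uranyl nitrate, 1 member (aqp7) was called with a filter of FPKM at least 1 (adjusted p 0.0478), with median-of-ratios scaling (0.0458), with a replicate block (0.0499) and in the fit of the 2 groups alone (0.0331). It was not called in the other 5 settings (up to 0.0742) or without any 1 of the 8 libraries (0.0707 to 0.151), and the cause was not tested. The replicate block also lost the call of gsto1 at 1 µM arsenite (adjusted p 0.0770), as did no filter (0.0514), no variance trend (0.0624) and the fit of 2 groups (0.250). Among the 9 members the replicate block changed the call of aqp7 alone. The change of as3mt at 10 µM arsenite ran from -0.0282 to 0.0712 with 1 library left out; it was negative without vehicle replicate 2 (-0.0073) or without replicate 4 of 10 µM arsenite (-0.0282), never called. In the fit of 2 groups, the named calls of txnrd3 (adjusted p 0.106), glrx (0.125), abcc5 (0.0846), slc20a1b (0.0519) and abcb11a (0.405) were lost, as were the marker calls of fabp2, vil1 and slc13a1 at 10 µM arsenite (adjusted p 0.0781 to 0.173), those of fabp2 at 300 µg/L uranyl nitrate (0.105) and in the mixture (0.313), and the steps between arsenite doses of abcc12 (0.203), gsr (0.239) and txnrd3 (0.558). The call of abcb11a was also lost with a pseudocount of 0.1 (0.0608), no filter (0.0672), equal FPKM totals (0.0507) and median-of-ratios scaling (0.0540). The txnrd3 step between arsenite doses was also lost with equal FPKM totals (0.0634), median-of-ratios scaling (0.0861) and no variance trend (0.0900). Of 1704 refits of the 96 pairs of member and contrast that were not called, 4 gave a call. Depth limits aqp10b most, at 20 to 68 reads per library.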
